A study of Mus musculus with 8 samples.

Results

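Ptprz1, Ptprg, Ptn and Mdk were followed in cells sorted from mouse medulloblastomas, as 4 named genes of 22180 genes measured. They are a receptor phosphatase, its closest relative and the ligands pleiotrophin and midkine. The genes were picked by name with the difference between the sorted fractions already known, so their levels and differences are given as a description, without a test. Each was read from the only probe set that carries its symbol alone, and all of the 4 genes were found. The genes around them, which bind, modify or cut these proteins, were tested.

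The tumours came from Patched1+/- mice carrying a Sox2-eGFP reporter (Patched1+/- parents of the CD1 stock and Sox2eGFP parents of the B6 strain). Patched1 is the receptor that holds Hedgehog signalling in check in granule neuron progenitors of the cerebellum. All animals received 3 Gy of ionizing radiation at birth, were over 70 days old and were taken when they showed signs of a brain tumour. Dissociated tumours were depleted of CD45+ white cells and Ter119+ red cells and sorted by eGFP. This gave 4 arrays of Sox2-positive (Sox2-eGFP+) and 4 of Sox2-negative (Sox2-eGFP-) cells, each of RNA pooled from 3 tumours, so that no animal is seen singly and the spread is that between pools. Both fractions share the genotype, the radiation and the depletion.

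Ptprz1 is a transmembrane tyrosine phosphatase of radial glia, astrocytes and oligodendrocyte progenitors. Its outer part carries chondroitin sulfate chains, and a secreted form, phosphacan, is a proteoglycan of the brain matrix. Pleiotrophin and midkine are small heparin-binding growth factors that bind to these chains and to the protein, which lowers the activity of the phosphatase and leaves its substrates more phosphorylated. Ptprg has the same build, with a carbonic anhydrase-like domain at its outer end, and binds contactins.

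Values are deposited on a log2 scale, where a step of 1 is a doubling. Differences between the fractions were taken within each gene, and levels were set against those of other genes only to judge dim values. Array medians over the genes measured lay between 5.83 and 5.88. Sox2 itself served as the check of the sort. It was at 5.67, 6.07, 6.36 and 5.68 in Sox2-positive pools 1 to 4 and at 4.05, 4.60, 4.49 and 4.04 in Sox2-negative pools 1 to 4. The fractions did not overlap, and every array went with its label. The table has no detection calls, so dim values were judged against 1390 genes of olfactory and vomeronasal receptors, not known from the cerebellum (median 4.95, upper quartile 5.80, the guide to dim values below). Sox2 in Sox2-negative cells lay below their median, and in Sox2-positive pools 1 and 4 below their upper quartile. Where a probe set read only background in one fraction, its fold comes out too small.

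Of the receptors, Ptprz1 (probe set 17456381) separated the fractions widely. Its values were 10.36, 10.82, 10.86 and 10.34 in Sox2-positive pools 1 to 4 and 5.80, 6.03, 5.97 and 5.53 in Sox2-negative pools 1 to 4. The lowest Sox2-positive pool lay 4.30 above the highest Sox2-negative pool. The means were 10.59 ± 0.29 and 5.83 ± 0.22 (SD, n = 4 each), a log2 difference of 4.76 (SE 0.14), or 27.1-fold. The Sox2-negative mean lay next to the upper quartile of the olfactory and vomeronasal receptor genes, so the fold may be understated. The difference was 2nd in size of all genes, and it was 18.5 times the pooled SD. In sorted bulk cells, fewer cells that express a gene and less RNA per cell cannot be told apart.

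Ptprg (probe set 17297125) was measured clearly in both fractions and overlapped between them. Its values were 7.77, 7.92, 7.91 and 7.77 in Sox2-positive pools and 7.65, 7.79, 7.46 and 7.58 in Sox2-negative pools 1 to 4. Sox2-negative pool 2 reached above Sox2-positive pools 1 and 4. The log2 difference was 0.22 (SE 0.09), or 1.17-fold, between means of 7.84 ± 0.09 and 7.62 ± 0.14 (SD, n = 4 each), which is 1.95 times the pooled SD. The 2 receptors of this class thus had differences of unlike size, 4.76 and 0.22 on the log2 scale.

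Of the ligands, Ptn (probe set 17465856) was higher in Sox2-positive cells. The values were 8.01, 8.34, 8.57 and 7.90 in Sox2-positive pools and 6.88, 6.86, 7.07 and 7.04 in Sox2-negative pools 1 to 4. All Sox2-positive pools lay above all Sox2-negative ones, by at least 0.83. The log2 difference was 1.24 (SE 0.13), or 2.37-fold, between means of 8.21 ± 0.31 and 6.96 ± 0.11 (SD, n = 4 each). Sox2-negative cells still had Ptn values above the upper quartile of the receptor genes used as a guide.

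Mdk (probe set 17388284) overlapped between the fractions, with a slightly lower mean in Sox2-positive cells. Its values were 7.66, 7.33, 7.47 and 7.22 in Sox2-positive pools and 7.77, 7.79, 7.61 and 7.15 in Sox2-negative pools 1 to 4. The lowest of the 8 values, in pool 4, was a Sox2-negative one. The log2 difference was -0.16 (SE 0.14), between means of 7.42 ± 0.19 and 7.58 ± 0.30 (SD, n = 4 each), which is 0.636 times the pooled SD. The difference of Ptn was 5.42 times its pooled SD, and that of Mdk was thus within its spread. Groups without overlap were seen for Ptprz1 and Ptn, or 2 of these 4. Over all genes measured 13.7% had such groups (7.63% with Sox2-positive cells higher), and nothing is read from these shares because the genes were chosen with the contrast known.

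**Figure D1:**
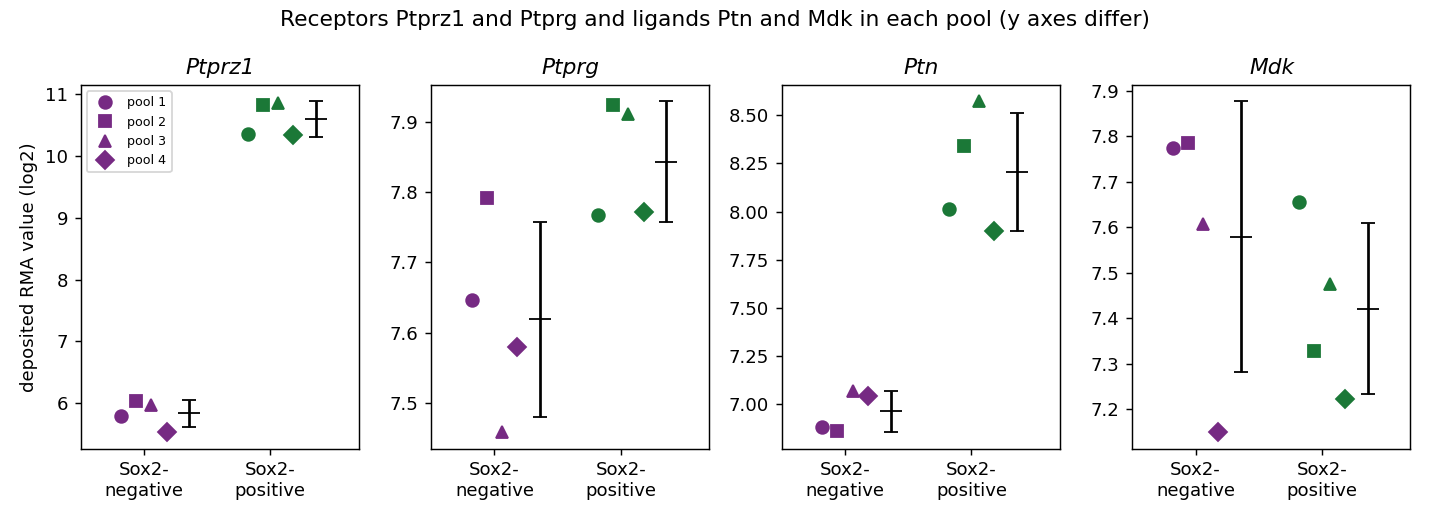
Deposited log2 values (y axis, a different range for each gene) of Ptprz1, Ptprg, Ptn and Mdk in 4 Sox2-negative (purple) and 4 Sox2-positive (green) pools, with the shape of a point giving the pool number and black bars the mean ± SD. Ptprz1 and Ptn do not overlap between the fractions, at 10.59 against 5.83 and 8.21 against 6.96 on average, while Ptprg and Mdk do.

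The order of the Sox2-positive pools was alike for the receptors and Ptn. Among Sox2-positive pools, numbers 2 and 3 were the higher ones for Ptprz1, Ptprg, Ptn and Sox2, and 1 and 4 the lower. Mdk did not have this order, since its highest Sox2-positive value was that of pool 1. The order was not particular to these genes, since Cntn1, Ncam1, Itgav and Xylt1, described below, had it too, while Tnr and Tnc did not. Among Sox2-negative pools, numbers 2 and 3 were again the higher ones for Ptprz1 and Sox2, but for Ptn they were 3 and 4. For Ptprg pool 2 was the highest and pool 3 the lowest. The SD of Ptprz1 and of Ptn over Sox2-positive pools was larger than that of 94.97% and 96.3% of all genes, while that of Ptprg was larger than that of 24.8%. Taken between pools of the same number, the log2 difference was 4.56, 4.79, 4.89 and 4.80 for Ptprz1 and 1.136, 1.481, 1.502 and 0.860 for Ptn. It was 0.12, 0.13, 0.45 and 0.19 for Ptprg, above 0 in each, and -0.12, -0.46, -0.13 and 0.07 for Mdk, below 0 in 3 of 4.

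The start regions of the genes are shown because Ptprz1 and Ptn were both higher in Sox2-positive cells and Ptprg, built like Ptprz1, overlapped. Windows run from 250 bases before to 50 after the start of transcription, as RefSeq gives it on GRCm38.p6. They are chr6:22875252-22875551 on the plus strand for Ptprz1, chr6:36810130-36810429 on the minus strand for Ptn and chr14:11553303-11553602 on the plus strand for the first of the Ptprg starts. Capitals mark the matches to the motifs searched.
Ptprz1: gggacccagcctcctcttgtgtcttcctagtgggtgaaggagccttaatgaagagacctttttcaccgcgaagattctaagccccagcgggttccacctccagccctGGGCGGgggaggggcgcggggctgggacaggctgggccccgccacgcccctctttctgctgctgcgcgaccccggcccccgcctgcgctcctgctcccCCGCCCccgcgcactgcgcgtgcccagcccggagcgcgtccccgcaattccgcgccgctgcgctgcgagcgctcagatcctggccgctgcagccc
Ptn: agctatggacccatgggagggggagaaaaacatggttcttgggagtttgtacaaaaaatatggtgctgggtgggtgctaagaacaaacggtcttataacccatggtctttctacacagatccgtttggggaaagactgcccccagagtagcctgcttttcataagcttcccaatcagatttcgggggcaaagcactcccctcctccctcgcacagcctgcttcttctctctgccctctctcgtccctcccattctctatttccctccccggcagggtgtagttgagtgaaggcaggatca
Ptprg: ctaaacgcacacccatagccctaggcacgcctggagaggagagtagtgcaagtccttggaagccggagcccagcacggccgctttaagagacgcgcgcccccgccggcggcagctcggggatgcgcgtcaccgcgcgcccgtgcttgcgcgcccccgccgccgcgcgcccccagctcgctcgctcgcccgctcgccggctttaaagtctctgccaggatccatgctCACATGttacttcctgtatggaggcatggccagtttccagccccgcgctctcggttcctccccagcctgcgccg

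Ptprz1 and Ptn, which both differed between the fractions, start in regions of unlike composition. The Ptprz1 window was 71.7% G and C with 29 CpG pairs, the Ptprg window 69% with 36, and the Ptn window 52% with 6. Over all 32851 windows of this length the median was 52.7% and 7 pairs. The motifs searched on both strands were ACAAAG and ACAATG (cores that Sox factors bind), CANNTG (the E-box of bHLH factors such as Olig2 and Atoh1), GGGCGG (the GC box) and TATAAA (the TATA box), and none of the matches overlapped another. Ptprz1 held 2 GC boxes, which begin 143 bases before the start and, on the other strand, 45 bases before it. Ptprg held 1 E-box that begins 24 bases before the start, and the Ptn window held none of the 5 motifs. The window of the second Ptprg start (chr14:12189693-12189992, plus strand, not printed) was 53.7% G and C with 7 pairs and held 2 E-boxes, 208 and 106 bases before that start. Mdk is not shown. Of all windows, 35.7% held a GC box, 72.3% an E-box, 18.7% ACAAAG, 12.6% ACAATG and 13.6% a TATA box, so such matches are common. They describe these windows and do not show that a factor binds there.

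The genes most like each of the 4 were taken by Pearson correlation over the 8 arrays among all genes, with predicted gene models left out. For Ptprz1 these were Ddah1, Cspg5, Cacng4, Sulf2 and Xylt1, at r of 0.999, 0.999, 0.998, 0.998 and 0.998. Such values mostly record the step between the fractions, which the points share, and the differences of these genes were 2.38, 3.89, 3.27, 4.27 and 2.74 on the log2 scale. After the mean of each fraction was taken off, r with Ptprz1 was 0.894, 0.819, 0.865, 0.867 and 0.734. Cspg5 is itself a chondroitin sulfate proteoglycan of neural cells, Sulf2 removes sulfate groups from heparan sulfate, and Xylt1 starts the sugar chains of proteoglycans. Cacng4 is an auxiliary subunit of AMPA receptors, and Ddah1 breaks down an inhibitor of nitric oxide synthesis.

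For Ptn the likest genes were Csmd1, Abcg1 and Lifr, at r of 0.995, 0.994 and 0.994, and 0.963, 0.930 and 0.930 within the fractions. Lifr, a receptor chain for leukaemia inhibitory factor, and Abcg1, a cholesterol exporter, had log2 differences of 1.37 and 1.11, close to the 1.24 of Ptn. For Ptprg they were Erf, Fam155a and Cpne3 (r of 0.988, 0.976 and 0.976), and for Mdk Runx3, Dusp16 and Olfr1461 (0.963, 0.959 and 0.949). The log2 differences of the genes most like Mdk were -0.10, -0.09 and -0.23. Runx3 (4.64 to 5.13) and Olfr1461 (3.63 to 4.27), an olfactory receptor gene, lay below the guide to dim values in all 8 arrays. Their r with Mdk within the fractions was still 0.959 and 0.950. All these likest genes were picked from 22180 by r over the same arrays, so a high r within the fractions comes in part from that choice.

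**Figure D2:**
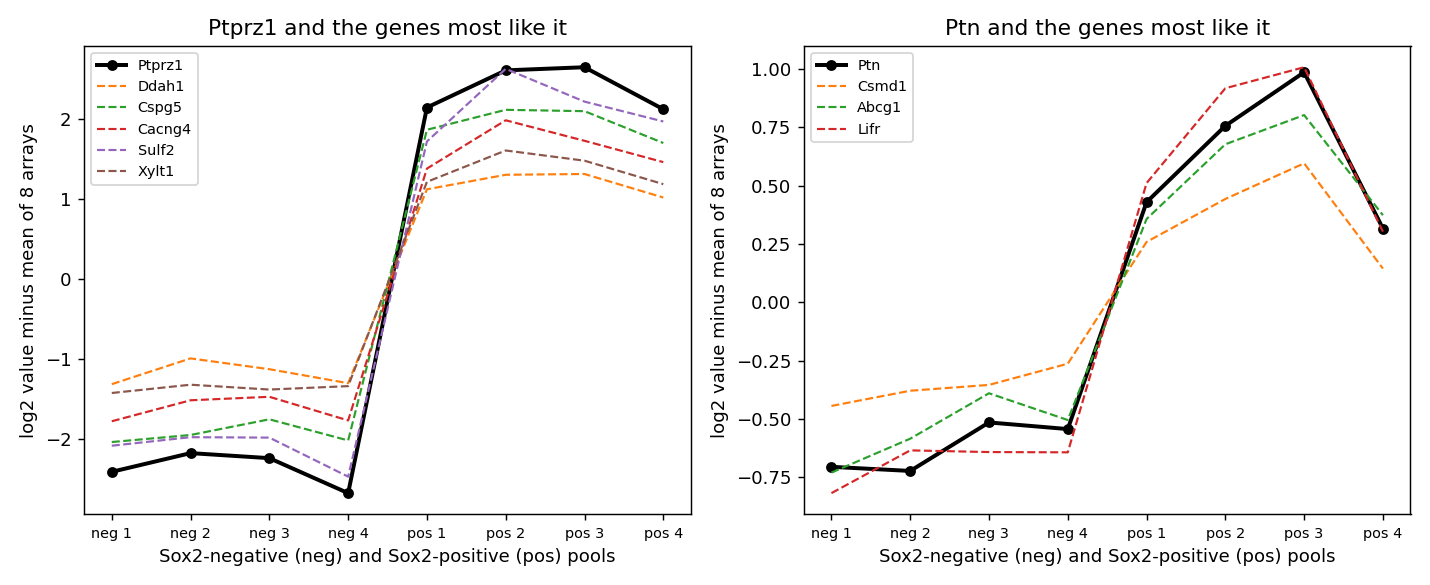
Log2 value minus the mean of the 8 arrays (y axis) in Sox2-negative and Sox2-positive pools 1 to 4 (x axis), for Ptprz1 with its 5 and Ptn with its 3 likest genes. Lines join the values of 1 gene and imply no order of the pools. The step between fractions is largest for Ptprz1 (4.76) among its likest genes, and Ptn (1.24) lies between Csmd1 (0.72) and Lifr (1.37).

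Ptprz1 and Ptprg bind proteins on neighbouring cells and in the matrix. Of 11 genes of such proteins 6 were higher in Sox2-positive cells and 1 was lower (limma, adjusted p under 0.05), against 8.47% of all genes called (5.96% higher and 2.52% lower), and their median log2 difference was 0.54 against -0.03 for all genes. With Sox2-positive pool 2 left out 4 were higher, and with array weights 5. At an unadjusted p under 0.05, 2305 of all genes were higher and 2149 lower, against 6 and 2 of this list. Some of these genes were known from earlier results to differ, so the list is no independent evidence of its direction. The other lists and the marker lists below were also chosen with earlier results known, and the same limit holds for them. Tnr encodes tenascin-R, a matrix protein that binds phosphacan. It was at 9.44, 10.47, 9.68 and 9.76 in Sox2-positive pools 1 to 4 and at 5.86, 6.12, 5.50 and 5.79 in Sox2-negative ones. The fractions lay far apart, with a log2 difference of 4.02 (SE 0.19, adjusted p = 2.10e-08). Tnc, its relative tenascin-C, was higher by 1.81 (SE 0.26, adjusted p = 0.000456). Its Sox2-positive pools spread from 7.29 in pool 2 to 8.92 in pool 3, while the Sox2-negative pools lay between 6.16 and 6.23.

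Contactins, adhesion proteins on a lipid anchor, went both ways. Cntn1, the main contactin partner of Ptprz1, was at 9.999, 10.512, 10.499 and 10.005 in Sox2-positive pools 1 to 4 and at 6.98, 7.12, 7.80 and 7.09 in Sox2-negative ones. The fractions did not overlap, and the log2 difference was 3.01 (SE 0.18, adjusted p = 1.52e-07). Cntn2, which is known from migrating granule neurons and their axons, fell by 1.49 (SE 0.19, adjusted p = 0.000169). Its Sox2-positive pools lay between 7.33 and 8.21, below the lowest Sox2-negative pool at 8.83.

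Ptprg binds Cntn3, Cntn4, Cntn5 and Cntn6, of which Cntn4 and Cntn6 were called higher, neither of them under every alternative. Cntn4 was higher by 0.54 (SE 0.12, adjusted p = 0.0132) and did not pass with Sox2-positive pool 2 left out (0.0505). Cntn6 was higher by 0.59 (SE 0.16, adjusted p = 0.0322), with both means, 5.81 and 5.22, near or below the guide to dim values. It no longer passed when pool 2 or 3 of either fraction was left out (0.0765 to 0.0876) or with array weights (0.0614). Cntn3 and Cntn5 did not pass, with log2 differences of 0.04 and -0.15 (adjusted p = 0.865 and 0.461).

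Of the listed cell adhesion molecules of the immunoglobulin family that are not contactins, Ncam1 passed the test. It was higher by 1.41 (SE 0.15, adjusted p = 3.81e-05), with values between 10.73 and 11.30 in Sox2-positive pools and between 9.21 and 9.87 in Sox2-negative ones. Nrcam did not pass, with a log2 difference of -0.10 (adjusted p = 0.697). L1cam, typical of axons, had one of -0.49 (SE 0.18, adjusted p = 0.138), which passed with the replicate number as a block (0.0359) and without Sox2-negative pool 2 (0.0249).

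Other proteins have been reported as receptors for pleiotrophin and midkine, and 6 of the 19 measured were higher and 2 lower (42.1% called, against 8.47% of all genes), with a median log2 difference of 0.05. Lrp1, a large endocytic receptor that also takes up apolipoprotein E, was at 9.45, 9.66, 9.56 and 9.48 in Sox2-positive pools 1 to 4 and at 7.25, 7.02, 7.10 and 7.22 in Sox2-negative ones. Its pools were tight in both fractions, and the log2 difference was 2.39 (SE 0.09, adjusted p = 3.37e-09). Sdc3, or N-syndecan, a heparan sulfate proteoglycan that binds pleiotrophin, was at 9.84, 10.39, 10.16 and 10.06 against 8.44, 8.25, 8.81 and 8.45. The fractions did not overlap, at a log2 difference of 1.62 (SE 0.13, adjusted p = 3.37e-06).

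Of the integrin chains and the other syndecans, Itgav, Itgb1, Sdc2 and Sdc4 were higher. Itgav, the alpha V integrin chain, was higher by 2.01 (SE 0.15, adjusted p = 1.63e-06), and by 0.95 when averaged with its other, dim probe set, which had a log2 difference of -0.12. Itgb3, the beta 3 chain it pairs with in the reported pleiotrophin receptor, had a 95% interval of -0.21 to 0.21 around its log2 difference, with both means (5.25) below the guide to dim values. Sdc2 was higher by 0.48 (adjusted p = 0.0125). Itgb1, the beta 1 chain, was higher by 0.47 (adjusted p = 0.0307), which did not hold when pool 3 of either fraction, Sox2-positive pool 2 or Sox2-negative pool 4 was left out (0.0735 to 0.0914). Sdc4 was higher by 0.40 (adjusted p = 0.0295), which did not hold when any one array but that of Sox2-negative pool 4 was left out (0.0525 to 0.0904).

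Gpc2 and Ptprs were the lower genes of this list. Gpc2 encodes glypican-2, a midkine-binding proteoglycan of developing neurons. It lay between 6.36 and 6.64 in Sox2-positive and between 7.06 and 7.29 in Sox2-negative pools, without overlap, and fell by 0.68 (SE 0.09, adjusted p = 0.000311). Ptprs encodes a receptor phosphatase for chondroitin and heparan sulfate chains and fell by 0.48 (SE 0.10, adjusted p = 0.00655). Alk, the receptor tyrosine kinase linked to both ligands, did not pass the test, at 6.08 ± 0.08 against 6.03 ± 0.14 (SD, n = 4 each). Its log2 difference was 0.05, with a 95% interval of -0.15 to 0.26 (limma adjusted p = 0.821). Ncl, or nucleolin, which binds both ligands at the cell surface, did not pass either (-0.11, 95% interval -0.31 to 0.09, adjusted p = 0.558).

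Among 10 measured genes of proteins inside the cell that Ptprz1 dephosphorylates or binds, 1 was higher and 0 lower in limma. Their median log2 difference was 0.06, and only RNA was measured. At an unadjusted p under 0.05 the counts were also 1 and 0, against 2305 and 2149 of the 22180 genes measured. In limma with adjustment, 10% of the list was called. That share of 10% is close to the 8.47% of all genes. With the dim genes left out 1845 of 11548 genes were called, and these 10 genes all stayed in, with 1 call. The gene was Fyn, a Src-family kinase of oligodendrocyte differentiation, with values of 7.60, 8.54, 7.89 and 7.72 in Sox2-positive pools 1 to 4 and 6.80, 7.10, 7.07 and 6.86 in Sox2-negative ones. Pool 2 stood highest in both fractions, and the log2 difference was 0.98 (SE 0.17, adjusted p = 0.00196). Ctnnb1, or beta-catenin, whose phosphorylation pleiotrophin raises through Ptprz1, differed by 0.04 on the log2 scale (95% interval -0.17 to 0.24) and did not pass (adjusted p = 0.881). The differences of the adaptor Git1, of Arhgap35 (p190RhoGAP), of the scaffold genes Magi1, Magi3 and Dlg4, of Pxn, of Add2 and of Erbb4 lay between -0.19 and 0.17, and none passed.

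Some genes of enzymes that build and sulfate chondroitin chains were higher in Sox2-positive cells. Of 20 measured (of 22 listed), 4 were higher and 0 lower in limma, or 20% against 8.47% of all genes, with a median log2 difference of 0.17. At an unadjusted p under 0.05 these counts were 9 and 1, against 2305 and 2149 of the 22180 genes measured. Xylt1, the xylosyltransferase that attaches the first sugar, was at 9.53, 9.93, 9.80 and 9.50 in Sox2-positive pools 1 to 4 and at 6.89, 6.99, 6.93 and 6.98 in Sox2-negative ones. Its log2 difference was 2.74 (SE 0.10, adjusted p = 3.37e-09), and it was also among the genes most like Ptprz1. Xylt2, which encodes the other such enzyme, had a log2 difference of -0.30 (adjusted p = 0.208; 0.0452 with the replicate block). Fam20b, a kinase that acts on the xylose, was higher by 0.56 (SE 0.13, adjusted p = 0.0167), which did not hold with Sox2-negative pool 1 or 4 left out (0.0572 and 0.0549).

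Chst11, the main enzyme that adds sulfate at the 4 position, was at 8.97, 9.51, 9.00 and 9.00 in Sox2-positive pools 1 to 4 and at 6.97, 7.15, 6.86 and 6.50 in Sox2-negative ones. Pool 2 was the highest in both fractions, and the log2 difference was 2.25 (SE 0.15, adjusted p = 3.98e-07). Ust, which sulfates uronic acid, was higher by 0.63 (SE 0.11, adjusted p = 0.00175). Chst12, another sulfotransferase for the same position as Chst11, had a log2 difference of 0.41 (adjusted p = 0.0585), which passed with the replicate block (0.0305), with quantile normalization (0.0468) and with the dim genes left out (0.0401). The chain polymerase genes Chsy1, Chsy3 and Chpf did not pass, with differences of -0.19, -0.01 and 0.19.

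Among the other receptor-type tyrosine phosphatases, 7 of 18 measured were higher and 1 lower (44.4% called, against 8.47% of all genes), with a median log2 difference of 0.06. At an unadjusted p under 0.05 the counts were 8 and 4, against 2305 and 2149 of the 22180 genes measured. None of these phosphatases had a difference as large as that of Ptprz1. Ptprn, a catalytically inactive member of dense-core vesicles, was at 7.79, 8.11, 7.85 and 7.90 in Sox2-positive pools 1 to 4 and at 6.44, 6.35, 6.22 and 6.13 in Sox2-negative ones, a log2 difference of 1.63 (SE 0.10, adjusted p = 2.46e-07). Ptprj was higher by 1.49 (SE 0.14, adjusted p = 9.71e-06), Ptpre by 1.38 (SE 0.17, adjusted p = 0.000107) and Ptprm, which binds itself on neighbouring cells, by 0.80 (SE 0.11, adjusted p = 0.000331). The values of these genes did not overlap between the fractions. The lower gene was Ptprs, described above. Both means lay below the guide to dim values for 7 of the 18 genes, among them Ptprc, which encodes CD45 and was used for the depletion (4.47 and 4.71).

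The phosphatase and its ligands can also be changed by cutting. Of 9 measured genes of proteases and gamma-secretase subunits reported to process Ptprz1, 4 were higher and 0 lower in limma, or 44.4% against 8.47% of all genes (median log2 difference 0.35). At an unadjusted p under 0.05 these counts were 5 and 0, against 2305 and 2149 of the 22180 genes measured. Ncstn, which encodes the gamma-secretase subunit nicastrin, had a log2 difference of -0.20 (adjusted p = 0.308) and was lower with quantile normalization (-0.29, adjusted p = 0.0461). Mmp2, a matrix metalloprotease, was higher by 1.27 (SE 0.14, adjusted p = 5.34e-05) and Plat, tissue plasminogen activator, by 0.74 (SE 0.15, adjusted p = 0.00508). Psenen, a subunit of gamma-secretase, was higher by 0.51 (SE 0.11, adjusted p = 0.0109). Adam17, the sheddase of many membrane proteins, was higher by 0.44 (SE 0.11, adjusted p = 0.0184), which did not hold when one of Sox2-negative pools 1 and 4 or Sox2-positive pool 3 was left out (0.0519 to 0.064). Mmp9 did not pass (-0.13, adjusted p = 0.5004), with both means (4.98 and 5.11) below the guide to dim values.

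**Figure D3:**
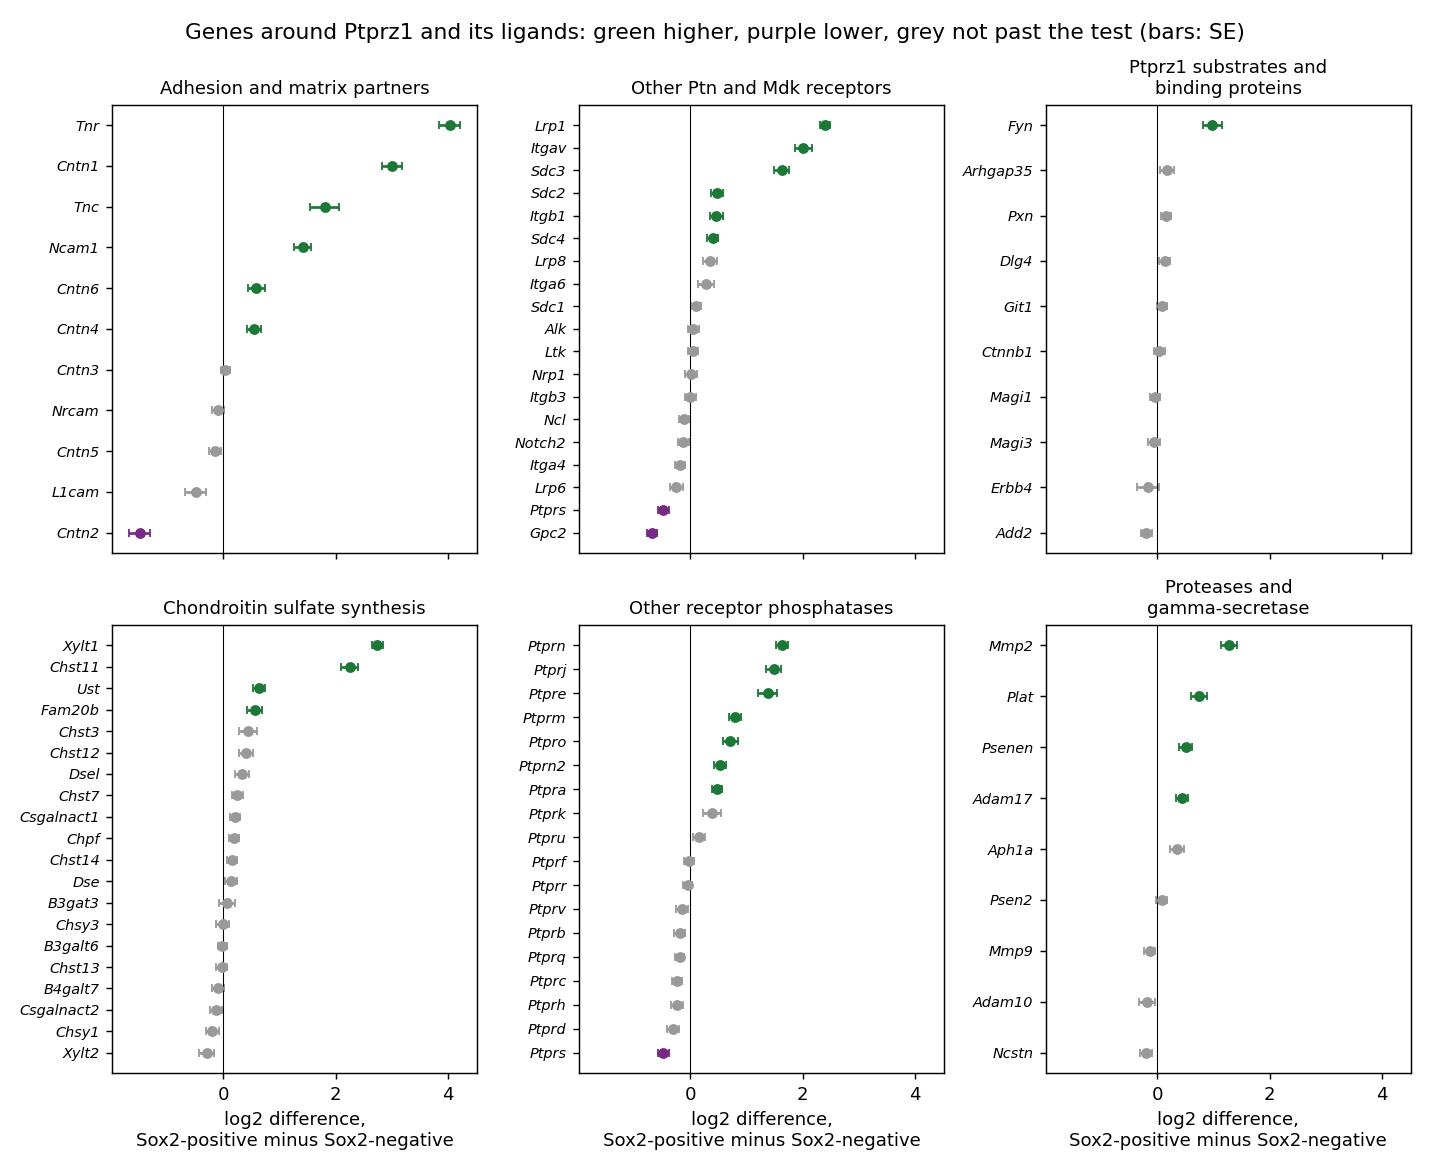
Log2 difference, Sox2-positive minus Sox2-negative, with its SE (x axis), for every measured gene of the 6 lists around Ptprz1 and its ligands (y axis). Green genes were higher and purple genes lower at a limma adjusted p under 0.05, and grey genes did not pass. Tnr (4.02), Cntn1 (3.01), Xylt1 (2.74), Lrp1 (2.39) and Chst11 (2.25) lie farthest to the right and Cntn2 (-1.49) farthest to the left.

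Ptprz1 and Ptn are not made by 1 cell type alone, so marker lists of 10 genes each were read in the same arrays. Oligodendrocyte progenitor markers were higher for 10 of 10 (5.96% of all genes), and their mean level lay between 8.23 and 8.81 in Sox2-positive pools and between 6.08 and 6.26 in Sox2-negative pools. Astrocyte and radial glia markers were higher for 7 of 10, at mean levels of 7.34 to 8.02 against 6.34 to 6.61. Of these Gja1 was close to the threshold (adjusted p = 0.0469) and did not pass with array weights (0.0709) or with any one array left out but those of Sox2-positive pools 2 and 4 (0.05003 to 0.133). Granule lineage markers, which include Cntn2, were lower for 8 of 10 (2.52% of all genes), at 7.40 to 7.77 against 8.27 to 8.60. Of these Atoh1 (adjusted p = 0.0278) did not pass when pool 1 of either fraction, Sox2-negative pool 4 or one of the Sox2-positive pools 2 and 3 was left out (0.0543 to 0.0868), nor did Neurod1 (0.0155) with Sox2-positive pool 2 left out (0.0529), while Neurod2 passed with the replicate block (0.00403). Among Sox2-positive pools, the oligodendrocyte progenitor list was highest in pool 2 and the astrocyte list in pool 3, the pools that were also highest for Ptprz1. A highest level in pool 3 was not particular to glial markers, since the granule lineage list had it too (7.77). These marker lists were chosen with earlier results of these data known, so their counts are no independent evidence of a direction. The part of these cell types in the levels of Ptprz1, Ptn and their partners was not tested.

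Other cells could also bring Ptn, Mdk or their receptors. Of 10 markers each, 0 passed for microglia and white cells and 0 for endothelial cells in limma, where 8.47% of all genes passed. At an unadjusted p under 0.05 1 of each list was lower, against 2149 of the 22180 genes measured. For pericytes and smooth muscle 1 of 10 passed, a share of 10% that is close to the 8.47% of all genes. It was Rgs5, higher by 0.37 (adjusted p = 0.0174), which did not hold with Sox2-positive pool 4 left out (0.0571) or after averaging its probe sets (0.252). At an unadjusted p under 0.05 1 of this list was higher and 1 lower. Kcnj8 of the same list had a log2 difference of -0.32 (adjusted p = 0.0879) and was lower with the replicate block (0.0403). For meningeal fibroblasts 1 of 10 was higher (10% called), Pdgfra, which is also on the oligodendrocyte progenitor list. Both means lay below the guide to dim values for 4 of the 10, among them Dcn (4.14 and 4.21 in Sox2-positive and Sox2-negative cells) and Lum (4.58 and 4.68). Others lay above it in both fractions, such as Col1a2 (6.58 and 6.75) and Col3a1 (6.36 and 6.35). Of the red cell list 3 of 8 genes were measured, and 0 passed in limma (0 also at an unadjusted p under 0.05). The levels of these lists overlapped between the fractions for microglia, for pericytes and for red cells. Those of endothelial markers were 5.24 to 5.27 against 5.28 to 5.43, and those of meningeal markers, with Pdgfra among them, 6.03 to 6.08 against 5.85 to 5.94. The part of these cells in the results was not tested.

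**Figure D4:**
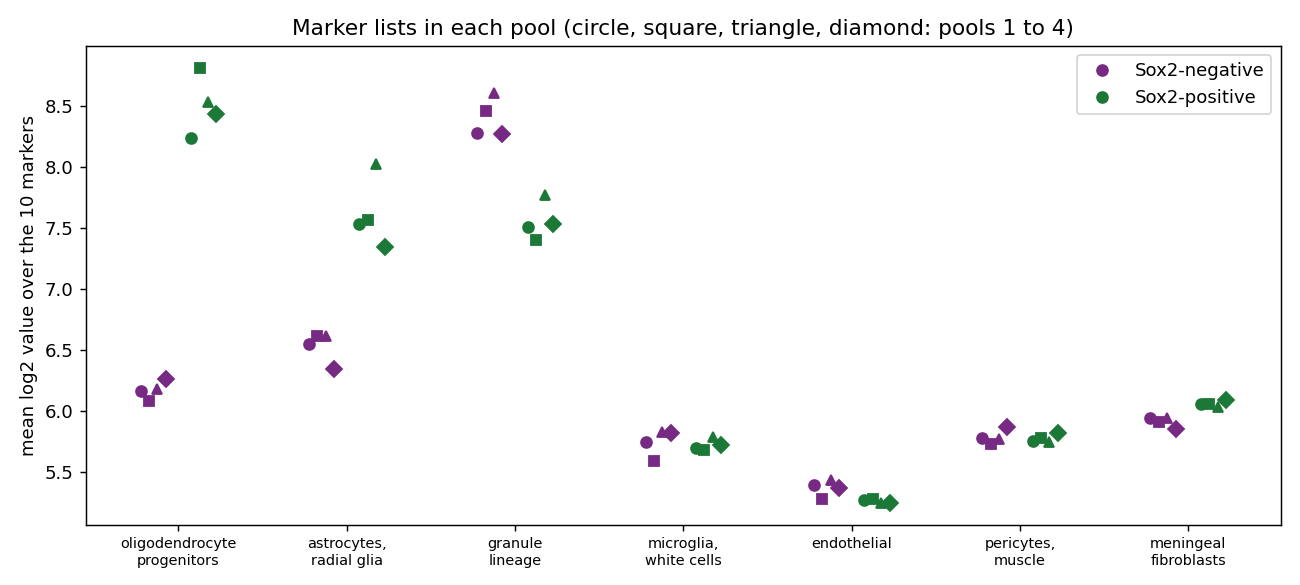
Mean deposited log2 value over the 10 markers of each of 7 cell types (y axis) in Sox2-negative (purple) and Sox2-positive (green) pools, with the shape of a point giving the pool. Oligodendrocyte progenitor and astrocyte markers lie higher in Sox2-positive pools and granule lineage markers lower, while the other 4 lists lie close together.

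The differences of the 4 genes were recomputed under other choices of normalization, weights, pairing and arrays. None of them changed sign, and each moved by less than 1 SD between pools. The replicate block, the mean of probe sets, the dim filter and the variance trend left these differences unchanged, as they must for such genes. Leaving out 1 array of 4 cannot move a difference by 1 SD. Only quantile normalization and array weights could have passed that limit. With quantile normalization the differences were 4.72 (Ptprz1), 0.15 (Ptprg), 1.16 (Ptn) and -0.22 (Mdk).

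**Figure D5:**
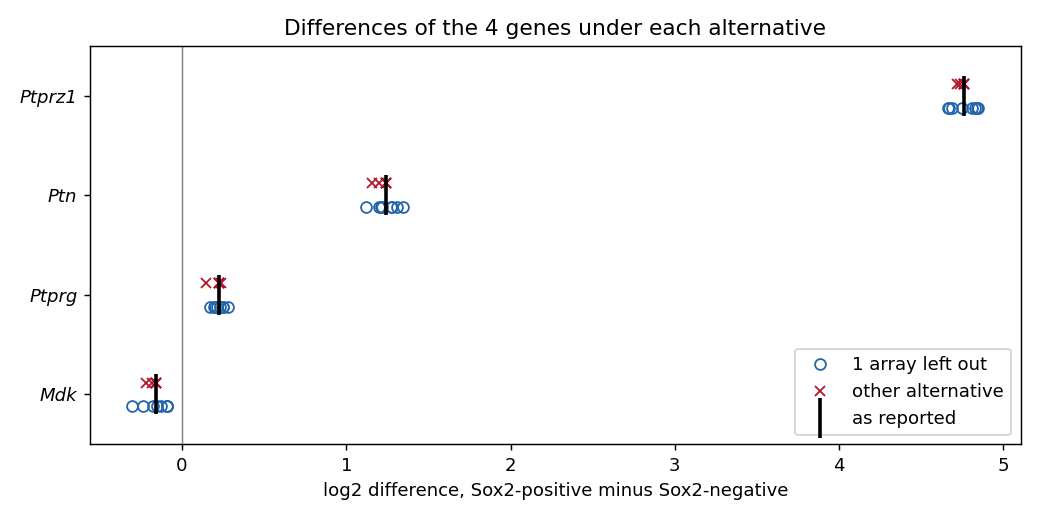
Log2 difference, Sox2-positive minus Sox2-negative (x axis), of the 4 genes as reported (black bar), with 1 array left out (blue circles) and under the other alternatives (red crosses). Ptprz1 stays between 4.66 and 4.85, Ptn between 1.12 and 1.35, Ptprg between 0.15 and 0.28 and Mdk between -0.30 and -0.09.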

How the data were processed

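The deposited table holds log2 values, 1 for each probe set in each of the 8 arrays. Per the submitters' processing notes the authors used RMA in Affymetrix Expression Console 1.2.0.20. RMA corrects background, brings arrays to a common distribution and summarises probes. It compresses dim differences and removes differences in total RNA. That the unit is log2 follows from the range (2.51 to 13.64). The build is not given in the sources used here. Of 41345 probe sets, 23521 had 1 symbol in the platform annotation (23328 matched to RefSeq, 0 symbols changed), 1814 had several and 16010 were unnamed. The brightest set per gene was taken, which left 22180 genes. No 2 arrays were identical.

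The test was that of limma 3.58.1 under R 4.3.3 (lmFit, eBayes, group only, two-sided), with Benjamini-Hochberg adjustment over all genes and a threshold of 0.05. The procedure was tested on simulated data. The 6 lists, 8 marker lists and members were chosen with earlier results of these data known. Genes named were 11 set by name, up to 4 higher and 4 lower per list by size (or the largest where none passed), and the likest genes (5 for Ptprz1, 3 for the others). Other genes were named after their values were seen. Deviations of arrays with equal numbers correlated at 0.164, 0.114, 0.177 and 0.241 over all genes. Unequal numbers reached 0.161, and the labels do not say that numbers pair. The pools were therefore not paired in the main fit, and the replicate block was kept as an alternative.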

Additional observations from a re-analysis of the deposited data

Results flagged for a closer look

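Every gene of the 14 lists, with Sox2, the 4 genes and those most like them, was screened for single pools far from the other 3 of their fraction, over 173 genes and 346 groups of 4. Chance flags about 1 in 20 such groups, and 21 were found. Ptprz1, Ptprg, Ptn and Mdk had no such pool.

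Of the partners and receptors, Cntn1 was at 7.80 in Sox2-negative pool 3, against 6.98 to 7.12 in the others. Nrcam was at 7.41 in Sox2-negative pool 4, against 7.75 to 7.79. Ptprs was at 8.63 in Sox2-positive pool 4, against 8.86 to 8.90, and Itga6 at 6.64 in Sox2-positive pool 3, against 5.91 to 5.98. Of the substrates, Magi1 was at 6.82 in Sox2-negative pool 4, against 7.06 to 7.08, and Pxn at 6.82 in Sox2-positive pool 3, against 7.09 to 7.12. Of the chondroitin enzymes, Chst11 was at 9.51 in Sox2-positive pool 2, against 8.97 to 9.00, and Chst3 at 4.59 in Sox2-negative pool 2, against 5.15 to 5.16. Of the phosphatases, Ptprj was at 6.71 in Sox2-negative pool 1, against 7.08 to 7.13, and Ptprc at 4.66 in Sox2-positive pool 4, against 4.39 to 4.42. Of the genes most like Ptn and Mdk, Lifr was at 5.38 in Sox2-negative pool 1, against 5.55 to 5.56, and Dusp16 at 6.71 in Sox2-negative pool 4, against 7.03 to 7.06.

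Of the neural markers, Olig2 was highest in Sox2-positive pool 3 (9.85, the others 9.02 to 9.15), Gjb6 lowest in Sox2-positive pool 1 (5.02), Pax6 lowest in Sox2-negative pool 4 (8.60) and Zic2 lowest in Sox2-positive pool 2 (8.24). Of the vascular and meningeal markers, Tie1 (5.05) was lowest and Tagln (5.26) highest in Sox2-positive pool 4. Pdgfrb (4.93) and Lum (4.24) were lowest in Sox2-positive pool 1, and Foxc1 (5.18) was highest in Sox2-positive pool 2.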

How the results depend on the processing

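The 14 alternatives were replicate block, quantile normalization, mean of probe sets, dim genes left out, array weights, variance trend and each array left out. Under them the differences of Ptprz1, Ptprg, Ptn and Mdk moved by less than 1 SD between pools and kept their sign. Only quantile normalization and array weights could have moved them by 1 SD, so the limit says little about the others. The count of calls of each of the 6 lists around these genes stayed within 1.5 times its value. The pericyte list had 1 call, 0 after averaging probe sets or without Sox2-positive pool 4, and 2 with the replicate block. With the dim genes left out 1845 of 11548 genes were called, a larger share than over all genes. The lists then had 6 calls of 9 genes (partners), 7 of 15 (receptors), 1 of 10 (substrates), 5 of 15 (chondroitin enzymes), 8 of 11 (phosphatases) and 4 of 7 (proteases). With the replicate block 2340 genes were called in place of 1879, and the lists had 8, 8, 1, 6, 9 and 5 calls in place of 7, 8, 1, 4, 8 and 4 (partners, receptors, substrates, chondroitin enzymes, phosphatases, proteases). Of the genes measured in those lists, the block changed the calls of L1cam, Xylt2, Chst12, Ptprk and Aph1a, all gained. Leaving out 1 array gave 1304 to 1835 calls over all genes. Higher genes made up 70.3% of calls (1321 against 558 lower) and 60.2% after quantile normalization (1282 against 847). With 4 arrays a fraction and no detection calls, dim genes such as Cntn6 and Itgb3 are limited by signal over background.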
